A study of Sus scrofa with 8 samples.

Results

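Prostaglandins are lipid signals made from arachidonic acid. The cyclooxygenases PTGS1, which many cells make at all times, and PTGS2, which cytokines and injury induce, form the shared precursor prostaglandin H2, and terminal synthases turn it into prostaglandin E2, prostaglandin D2, prostacyclin and others, each read by its own G protein-coupled receptors. In islets PTGS2 is known as an interleukin-1 responsive gene, and prostaglandin E2 acting on PTGER3 is known to restrain insulin release. Expression of this family was examined in islets of neonatal pigs. The members were all probe sets, the groups of short oligonucleotides that read a transcript on the array, whose single gene symbol in the platform annotation was PTGS1, PTGS2, PTGES, PTGES2, PTGES3, PTGDS, PTGIS, PTGER2, PTGER3 or PTGFR. Of these 10 genes 7 had a probe set, among 6765 symbols that stand alone on a probe set, and together they had 10 of the 23999 probe sets other than controls. PTGES2, PTGIS and PTGER2 had none under their symbols and were not analysed here.

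Islets came from male Duroc/Large White cross piglets, 4 of 3 days and 4 of 7 days of age. Each Affymetrix porcine array is titled with 1 numbered pig, and the sources used here do not mention pooling. Pancreas digested with collagenase was kept for 7 days in culture with 10 mmol/l glucose, 10 mmol/l nicotinamide and 50 µmol/l isobutylmethylxanthine, a phosphodiesterase inhibitor, so both ages shared that treatment and no array shows freshly isolated tissue. Each value is a linear intensity that the authors scaled to a common trimmed mean per array. The median intensity of an array was 172 to 178. Precision is limited by having 4 arrays per label. Over all probe sets tested, the standard error of a log2 difference was 0.17 at the median. The arrays name no genome build, so no positions are given, and intensities of different probe sets are not compared as levels. The islet hormones INS, GCG, SST and PPY were above their array's 20th percentile, the level used as the filter, in all 8 arrays, as was the acinar enzyme CPA1, so the preparations held exocrine RNA as well.

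Groups are named by the deposited age labels. For PTGS1 and PTGS2 the direction by these labels is opposite to the one the study gives for the same probe sets, and the sources used here do not settle which of the labels are exchanged. The same reversal holds for every other probe set given values here that the study also lists, among them those of MMP3, MMP1, AMCF-II, DCN, CDH5, PECAM1, RGS5, CPB1, CXCL8 and IL1A, so it is not particular to the cyclooxygenases. Every signed difference is the mean log2 intensity under the 7-day-old label less that under the 3-day-old label, so a direction holds for the labels. If the groups as a whole are exchanged, each sign turns and its size stays. The study chose PTGS1 and PTGS2 on these samples, so their separation here is not independent evidence.

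Of the 7 probe sets of synthesis enzymes 4 passed the test between the labels, and of the 3 of receptors 0 passed. Enzymes and receptors were not tested against each other. Of the 10 member probe sets, all of which passed the filter on dim probe sets, 4 were lower in arrays labelled 7-day-old by limma's moderated test at an adjusted p under 0.05, and 0 were higher. They belonged to 4 genes, both cyclooxygenases, PTGES and PTGDS. Of all 21574 probe sets tested, 5.47% were lower and 5.21% higher. In the same 4 member probe sets every array labelled 7-day-old lay below every array labelled 3-day-old, as in 10.3% of all probe sets tested. The labels lay apart upwards in 0 members and in 10.9% of all, and in either direction in 21.2% of all. The median log2 difference was -0.45 over the members and -0.00 over all probe sets tested. With any 1 array left out, 3 or 4 of the member probe sets passed.

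**Figure D1:**
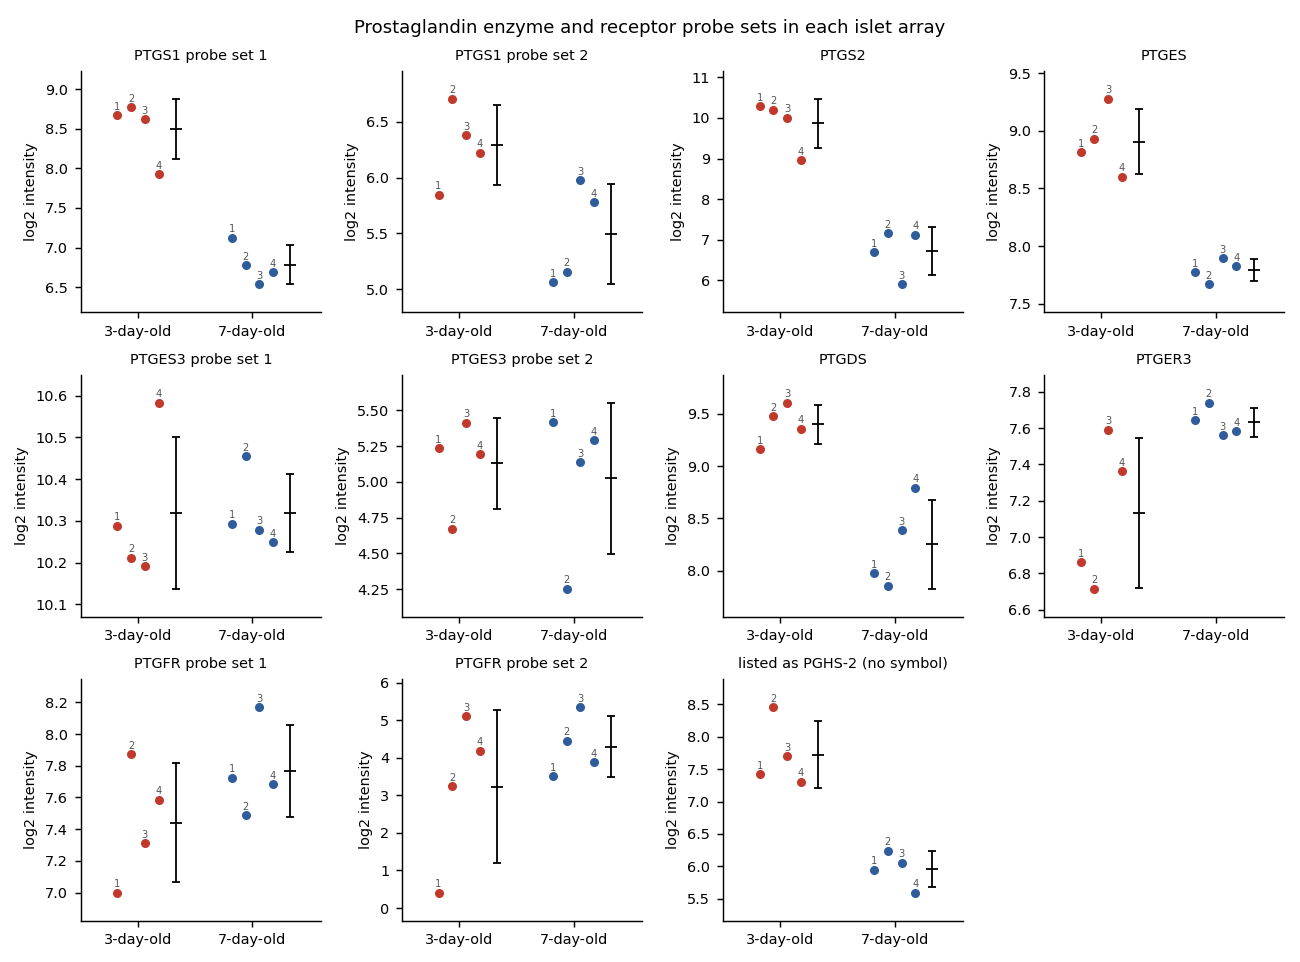
Log2 intensity (vertical axis) of each of the 10 member probe sets and of the probe set listed as PGHS-2 in the 4 arrays labelled 3-day-old (red) and the 4 labelled 7-day-old (blue), numbered by replicate, with the mean and SD as a black bar; each panel has its own scale. PTGS1 probe set 1, PTGS2, PTGES and PTGDS show no overlap between the labels, as does the probe set listed as PGHS-2, while PTGS1 probe set 2, both PTGES3 probe sets, PTGER3 and both PTGFR probe sets overlap.

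PTGS2, the inducible cyclooxygenase, had the largest difference in the family. In arrays labelled 3-day-old its intensity was 1249, 1176, 1029 and 497 in replicates 1 to 4, and in arrays labelled 7-day-old it was 103, 142, 59.6 and 139. The lowest array labelled 3-day-old was thus still 3.49-fold above the highest labelled 7-day-old, although replicate 4 had less than any other array of its label. Mean intensity was 988 ± 340 under the younger label and 111 ± 38.7 under the older (SD, n = 4 each), and the log2 difference was -3.15 (standard error 0.383, 95% interval -4.04 to -2.26, adjusted p = 0.0061). Ranked from the lowest log2 difference it was number 13 of the 21574 probe sets tested. Without 3-day-old replicate 4 the difference was -3.45, and over all single arrays left out the adjusted p lay between 0.00762 and 0.023.

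A second probe set, without a symbol in the annotation and so outside the member rule, is listed by the study as PGHS-2, an older name of PTGS2. Its intensity was 172, 352, 207 and 158 in arrays labelled 3-day-old and 61.7, 75.7, 66.5 and 48.2 in arrays labelled 7-day-old, again without overlap. The log2 difference was -1.76 (95% interval -2.39 to -1.14, adjusted p = 0.0102). Both probe sets were lowest in replicate 4 among the arrays labelled 3-day-old, but they ranked the other arrays differently, with PTGS2 highest in replicate 1 and the second probe set highest in replicate 2.

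PTGS1, the constitutive cyclooxygenase, was lower in arrays labelled 7-day-old by 1 of its 2 probe sets. Probe set 1, the brighter, had 407, 436, 394 and 244 in arrays labelled 3-day-old and 139, 110, 92.9 and 103 in arrays labelled 7-day-old. As for PTGS2, replicate 4 was the lowest of its label and still lay above every array of the other label. The means were 370 ± 86.2 and 111 ± 19.9 (SD, n = 4 each), with a log2 difference of -1.72 (95% interval -2.21 to -1.22, adjusted p = 0.00622). Probe set 2 was dimmer, at 57.4, 104, 83.1 and 74.7 against 33.4, 35.7, 62.9 and 54.9. Its labels overlapped and it did not pass, with a log2 difference of -0.79 (95% interval -1.41 to -0.18, adjusted p = 0.0994), so the 2 probe sets had the same sign and disagreed on the call.

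The size of the difference between PTGS2 and PTGS1 depended on which probe set read PTGS2. Within an array, the log2 ratio of PTGS2 to PTGS1 probe set 1 was 1.62, 1.43, 1.39 and 1.03 in arrays labelled 3-day-old and -0.43, 0.38, -0.64 and 0.43 in arrays labelled 7-day-old. The ratio of these different probe sets has no meaning as a level, and its change between labels, -1.43, was the measure compared. The 4 arrays of the labels lay apart (exact permutation test, two-sided, p = 0.0286, the smallest that 4 against 4 allow, and 0.0286 adjusted over the 3 ratios tested). PTGS2 relative to PTGES changed by -2.03 with the same p by the exact permutation test. PTGS2 relative to the probe set listed as PGHS-2 changed by -1.38, also with that p, so the 2 probe sets taken as PTGS2 lay about as far from each other as PTGS2 lay from PTGS1 probe set 1. The probe set listed as PGHS-2 itself had a log2 difference of -1.76, beside -1.72 for PTGS1 probe set 1, and that pair was not tested. A larger change of PTGS2 than of PTGS1 was therefore seen for 1 probe set and not for the gene. The study lists both genes with their fold changes from these samples, so this comparison is not independent evidence. The last ratio did not pass without any 1 of the arrays labelled 3-day-old or without 7-day-old replicate 3 (exact permutation test, adjusted p = 0.0571).

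**Figure D2:**
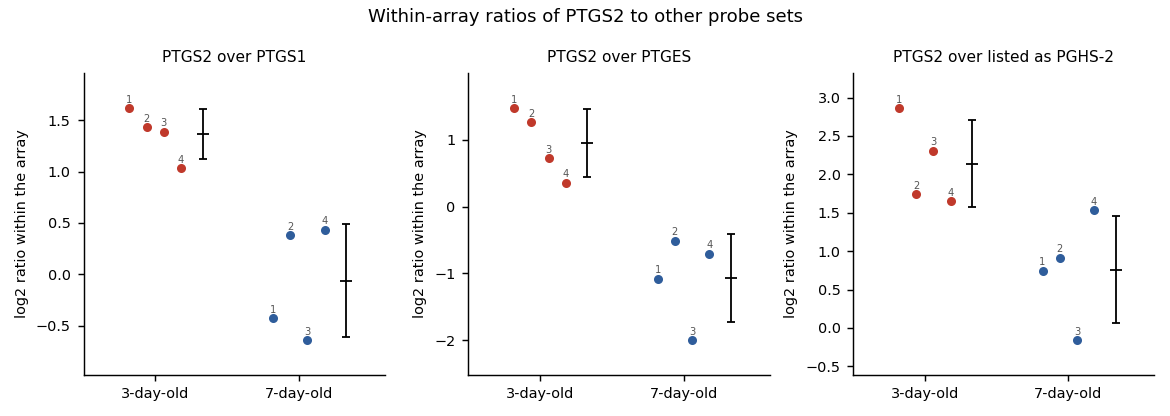
Log2 ratio of PTGS2 to PTGS1 probe set 1, to PTGES and to the probe set listed as PGHS-2 within each array (vertical axis), for arrays labelled 3-day-old (red) and 7-day-old (blue), numbered by replicate, with mean and SD as a black bar. In each panel all red points are above all blue points, with mean changes of -1.43, -2.03 and -1.38.

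Among the synthases of prostaglandin E2, the inducible enzyme passed the test and the cytosolic one did not. PTGES, the microsomal synthase that is often induced together with PTGS2, had 449, 489, 621 and 389 in arrays labelled 3-day-old and 219, 203, 238 and 227 in arrays labelled 7-day-old. The arrays labelled 7-day-old lay close together, and all were below the lowest of the other label, again replicate 4. Mean intensity was 487 ± 98.5 and then 222 ± 14.6 (SD, n = 4 each), and PTGES had a log2 difference of -1.12 (95% interval -1.46 to -0.77, adjusted p = 0.00732). With single arrays left out the adjusted p of PTGES lay between 0.00923 and 0.0268.

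PTGES3, the cytosolic prostaglandin E synthase better known as the HSP90 co-chaperone p23, gave a log2 difference of 0.00 in its brighter probe set, with a 95% interval of -0.26 to 0.26 (adjusted p = 0.999). Its values were 1251, 1186, 1169 and 1534 against 1254, 1404, 1242 and 1217, so the labels lay across each other. The interval leaves room for a difference of up to 0.26 either way and holds none of the size seen for PTGES. The second PTGES3 probe set was dim, between 19.1 and 42.8 in all arrays and at or above the 20th percentile in 6 of 8, with a log2 difference of -0.10 (adjusted p = 0.848).

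PTGDS, the lipocalin-type prostaglandin D synthase, which is secreted and also carries lipophilic ligands, had 572, 711, 779 and 655 in arrays labelled 3-day-old and 252, 232, 335 and 444 in arrays labelled 7-day-old. The labels did not overlap, but 7-day-old replicate 4 came within 1.29-fold of the lowest array of the other label. Mean intensity was 679 ± 87.7 and then 316 ± 96.2 (SD, n = 4 each), and PTGDS had a log2 difference of -1.14 (95% interval -1.65 to -0.64, adjusted p = 0.02). This call rested on single arrays. With replicate 2 of the 3-day-old label left out the adjusted p was 0.0561, with its replicate 3 left out it was 0.0574, and with replicate 1 of the 7-day-old label left out it was 0.0554.

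**Figure D3:**
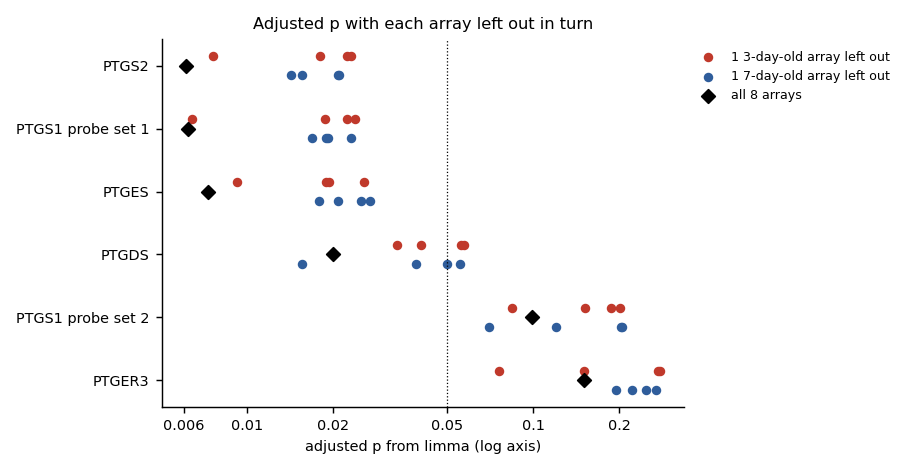
Adjusted p from limma (horizontal log axis; dotted line at 0.05) for 6 member probe sets with all 8 arrays (black diamonds) and with 1 array left out in turn (red: an array labelled 3-day-old, blue: one labelled 7-day-old). PTGS2, PTGS1 probe set 1 and PTGES stay below 0.05 throughout, PTGDS crosses it 3 times, up to 0.0574, and PTGS1 probe set 2 and PTGER3 stay above it.

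None of the 3 receptor probe sets passed, and all 3 had positive log2 differences. PTGER3, the prostaglandin E2 receptor that lowers cyclic AMP through Gi, had 116, 105, 193 and 165 in arrays labelled 3-day-old and 200, 214, 189 and 192 in arrays labelled 7-day-old. The arrays labelled 7-day-old lay close together, and 3-day-old replicate 3 fell within their range. The log2 difference of 0.50 (95% interval 0.04 to 0.96) had an adjusted p of 0.151.

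PTGFR, the receptor of prostaglandin F2 alpha that signals through Gq and calcium, had 128, 234, 159 and 192 against 212, 179, 288 and 206 in its brighter probe set. The labels overlapped widely, and the log2 difference was 0.33 (95% interval -0.19 to 0.84, adjusted p = 0.387). The other PTGFR probe set lay between 1.32 and 41 and was at or above the 20th percentile in 2 of 8 arrays, so its log2 difference of 1.07 (95% interval -1.20 to 3.33, adjusted p = 0.527) carries little information.

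Beyond the members, 38 further symbols of the pathway were listed, and 11 of them had a probe set that was tested, 1 per gene. Of these 11 genes 1 was lower, 1 was higher and 9 did not pass, where 12.2% of the 6545 genes tested passed, 7.15% lower and 5.03% higher. Neither call held up well, and neither passed with no filter on dim probe sets (adjusted p = 0.0613 for ALOX5AP and 0.0539 for PTGR2). ALOX5AP, which presents arachidonic acid to 5-lipoxygenase for leukotriene synthesis, had 137, 122, 113 and 93.3 against 78.3, 87.4, 68.9 and 82.8, a log2 difference of -0.54 (adjusted p = 0.0488). It did not pass when any array other than 3-day-old replicate 4 was left out, with adjusted p up to 0.112, and had 0.0282 without that array. ALOX5AP also did not pass by the methods' t-test (0.0628), with the intensity trend (0.0809), after median centring (0.0552) or after quantile normalization (0.0721). PTGR2, a reductase of 15-keto prostaglandins on the route of breakdown, had 2148, 2030, 2255 and 2286 against 2673, 2947, 2589 and 2941, a log2 difference of 0.35 (adjusted p = 0.0415). It did not pass when any of the 8 arrays was left out, with adjusted p of 0.0522 to 0.108.

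The other pathway genes measured did not pass. TBXAS1, the thromboxane synthase, had a log2 difference of -0.31 (95% interval -0.66 to 0.03, adjusted p = 0.212). FAM213B, a prostaglandin F synthase, had 162 ± 5.92 and 202 ± 20.5 (SD, n = 4 each) without overlap, and a log2 difference of 0.32 (adjusted p = 0.0802). FAM213B passed with a stricter filter, one that kept only probe sets at or above the median of their array in 4 or more arrays (0.0313). CBR1, a carbonyl reductase that converts prostaglandin E2 to F2 alpha, reached the 20th percentile in only 2 arrays and had a log2 difference of -1.73 (adjusted p = 0.0522). Both arrays were labelled 3-day-old, so CBR1 entered the test only through that label. CBR1 passed with array quality weights (0.042), without 7-day-old replicate 3 (0.0331, at -1.28) and with an offset of 16 added to every intensity before taking logs (0.0209), where its log2 difference was only -0.85. PTGFRN, a membrane protein that associates with PTGFR, had -0.43 (adjusted p = 0.133), and the prostaglandin reductase PTGR1 had 0.15 (adjusted p = 0.241). The phospholipases PLA2G1B, a digestive enzyme of acinar cells, and PLA2G12A had log2 differences of -0.36 (95% interval -1.46 to 0.75) and 0.01 (95% interval -0.24 to 0.27). The leukotriene receptors CYSLTR1 and CYSLTR2 were dim, at or above the 20th percentile in 4 and 3 arrays, with log2 differences of -0.77 (adjusted p = 0.216) and 0.05 (adjusted p = 0.955).

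**Figure D4:**
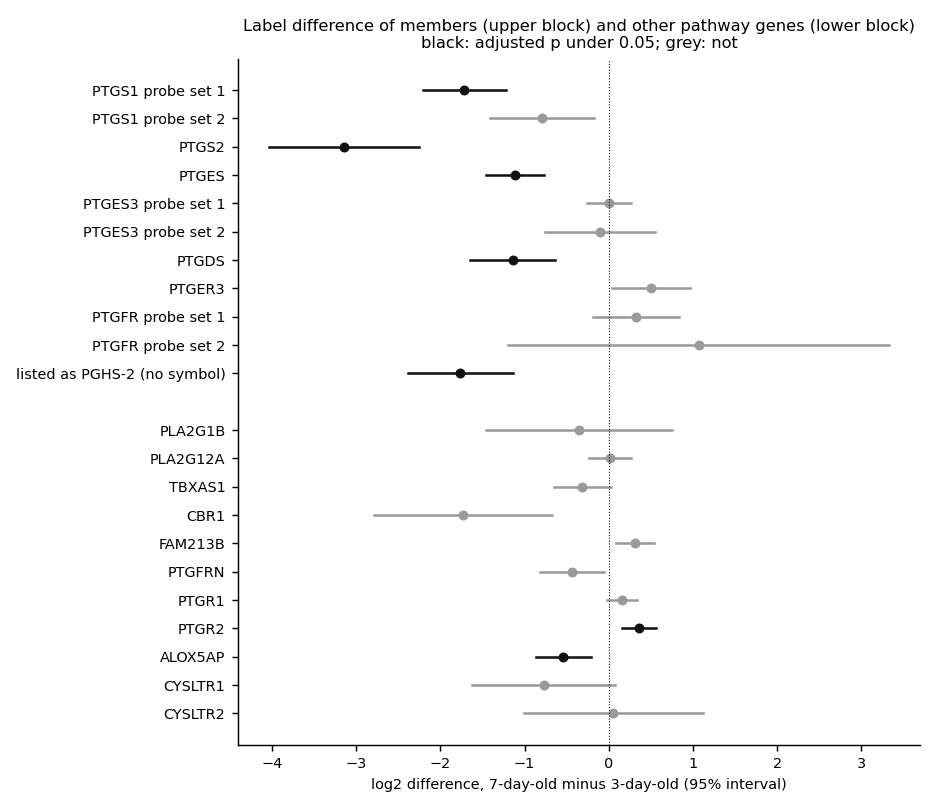
Log2 difference between the labels (horizontal axis, 7-day-old minus 3-day-old) with its 95% interval from limma for the member probe sets and the probe set listed as PGHS-2 (upper block) and for the 11 other pathway genes (lower block), in black where the adjusted p was under 0.05. PTGS2 lies farthest from 0 at -3.15, while the interval of PTGES3 probe set 1 spans -0.26 to 0.26.

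A list of cytokines, transcription factors and RNA-binding proteins around the induction of PTGS2 gave calls in 1 direction. Of its 26 symbols, 19 were measured, 8 were lower in arrays labelled 7-day-old and 0 were higher, with a median log2 difference of -0.18, where 7.15% of all genes tested were lower. The list was chosen with earlier results of these data known. It also holds IL1A and CXCL8, which the study lists from these samples, so this count is not independent evidence. A shared sign in this list is not a shared effect on PTGS2. Among the 8, TNF and IL10 were dim, at or above the 20th percentile in 5 and 6 arrays (limma, adjusted p = 0.0422 and 0.0467). CEBPB, a transcription factor of inflammatory genes, averaged 1545 ± 217 and then 865 ± 96.9 (SD, n = 4 each), and its log2 difference was -0.83 (adjusted p = 0.0125). The cytokine IL1A had -1.08 (adjusted p = 0.0199), its receptor IL1R1 -0.61 (adjusted p = 0.0204) and NFKBIA, the inhibitor that NF-kappa B itself induces, -0.68 (adjusted p = 0.0199). IL1R1 passed in 1 of its 2 probe sets tested, and IL1A in 2 of 2. IL1B, named after its values were seen because it is a classical inducer of PTGS2, had -0.13 (95% interval -0.70 to 0.44, adjusted p = 0.773). The 8 calls of this list became 2 without 3-day-old replicate 2 or 3, 3 without 7-day-old replicate 2, 4 without 3-day-old replicate 1, 5 without replicate 1 or 4 of the 7-day-old label, and 5 by the methods' t-test or with the stricter filter. CEBPB passed with every single array left out. IL1A did not pass when replicate 2 or 3 of the 3-day-old label, or replicate 1 or 2 of the 7-day-old label, was left out (adjusted p up to 0.0582), NFKBIA when replicate 2 of either label was (up to 0.0561), and IL1R1 when replicate 3 of the younger or replicate 1 of the older label was (up to 0.0587).

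Some markers of fibroblasts, endothelial cells, pericytes and duct cells were lower under the same label as the enzymes, although most markers of these lists did not pass. Of the 6545 genes tested 7.15% were lower and 5.03% higher. The lists were chosen with earlier results of these data known. DCN, CDH5, PECAM1, RGS5 and CPB1 are also among the genes that the study lists from these samples. The summed intensity of 10 fibroblast and stellate markers was 56382 to 72328 in arrays labelled 3-day-old and 42355 to 47682 in arrays labelled 7-day-old. This sum and those below are carried by their brightest probe sets and are not levels of a cell type. Here these were VIM, SPARC and FN1, at means of 20516, 20390 and 12378 under the 3-day-old label. None of them passed (limma, adjusted p = 0.0637, 0.0594 and 0.103). Of these 10 markers 4 were lower, among them DCN, a matrix proteoglycan, at a log2 difference of -2.05 (adjusted p = 0.0126) and THY1 at -0.90 (adjusted p = 0.0144). PDGFRB at -1.17 (adjusted p = 0.037) and COL1A2 at -0.71 (adjusted p = 0.0473) made up the 4, and both lost the call without any 1 array other than 3-day-old replicate 1. That count was 5 without 3-day-old replicate 1 and 2 without any other single array. THY1 and PDGFRB each had 2 probe sets tested, and the dimmer one did not pass. Of 8 endothelial markers 3 were lower, PECAM1 at -1.70 (adjusted p = 0.00331), CDH5 at -1.41 (adjusted p = 0.0192) and TIE1 at -3.41 (adjusted p = 0.0061). TIE1 was below the 20th percentile in all arrays labelled 7-day-old and passed the filter only through those labelled 3-day-old. With the offset of 16 the log2 difference of TIE1 was -1.75. The sum of the 8 was between 1398 and 1852 under the younger label and between 486 and 753 under the older. Its brightest probe sets were those of PECAM1 and CDH5, genes that the study lists from these samples. Of the endothelial calls, that of CDH5 was lost without replicate 1 or 2 of the 7-day-old label (limma, adjusted p up to 0.0547). The pericyte and smooth muscle markers RGS5 at -1.42 (adjusted p = 0.0067) and TAGLN at -0.74 (adjusted p = 0.0124) were lower among 5 measured, with sums of 2875 to 3830 and 1755 to 2174.

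Of 8 macrophage and common leukocyte markers 1 was lower, TYROBP, at -2.25 (adjusted p = 0.0328), where 7.15% of all genes tested were lower. A single call, here as among the 4 acinar markers below, is not read as a result about the cell type. TYROBP was dim under the 7-day-old label, at 19.8, 18.2, 10 and 53, and at or above the 20th percentile in 5 of 8 arrays. With the offset of 16 its log2 difference was -1.59, and it did not pass by the methods' t-test (adjusted p = 0.0612). TYROBP passed without 3-day-old replicate 4 and without 7-day-old replicate 4, and not without any other single array (adjusted p up to 0.0831). The defining leukocyte gene PTPRC reached the 20th percentile in 1 array and ITGAM in 3, and the summed markers lay at 855 to 1480 and 639 to 890. Of 6 duct markers 2 were lower, KRT19 at -0.83 (adjusted p = 0.0148) and MUC1 at -0.61 (adjusted p = 0.0401), with sums of 26202 to 28738 and 23682 to 24789, and 1 passed when any array other than replicate 1 of the 3-day-old label or replicate 3 of the 7-day-old label was left out. MUC1 passed in 1 of its 2 probe sets tested. Of 4 acinar markers 1 was lower, CPB1, at -1.56 (adjusted p = 0.00787), while AMY2 had 0.52 (adjusted p = 0.103) and CELA1 0.79 (adjusted p = 0.0986), and the sums overlapped at 29759 to 32502 and 25599 to 36127. The 5 endocrine markers gave 0 calls in limma and 0 by the methods' t-test, with SST at 0.08 (95% interval -0.16 to 0.31), GCG at -0.19 (95% interval -0.56 to 0.18) and sums of 94124 to 119787 and 95562 to 127908. No listed marker that was measured stood at 0 in any array, which does not show that its cell type was present. KDR went down to 1.54, ITGAM to 2.64 and TIE1 to 2.74, where the 20th percentile of an array was 26.4 to 31.3. The part of these cell types in the differences of PTGS1, PTGS2, PTGES and PTGDS was not tested, and in whole islet preparations fewer cells of a type and less RNA per cell cannot be told apart.

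**Figure D5:**
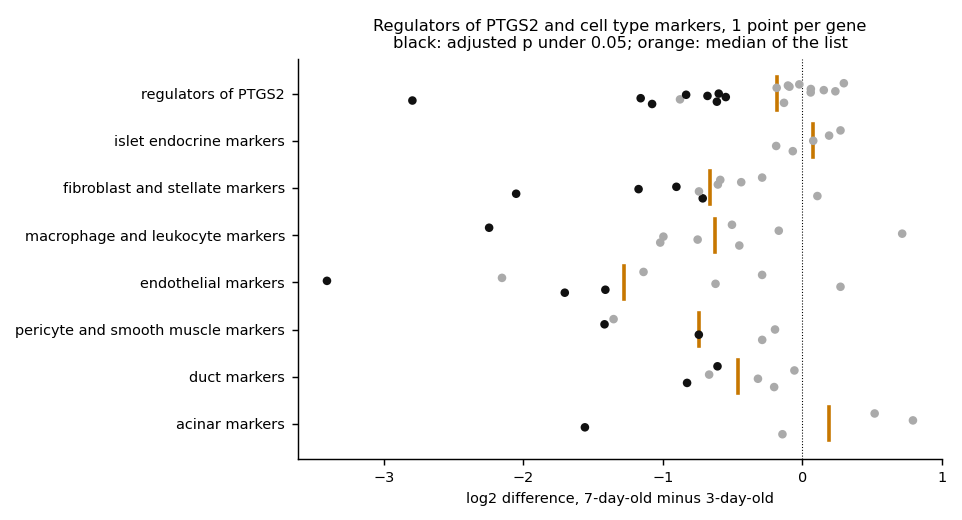
Log2 difference between the labels (horizontal axis) of each measured gene, 1 point per gene, for the regulators of PTGS2 and for 7 lists of cell type markers, in black where the adjusted p was under 0.05, with the median of each list in orange. The endocrine markers lie around 0, and the endothelial median is lowest at -1.28.

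Over the 8 arrays, the genes whose centred log2 values lay nearest to those of PTGS2 were the matrix metallopeptidases MMP3 and MMP1, with root mean square differences of 0.41 and 0.50, the neutrophil chemokine AMCF-II with 0.52, C4H1orf54 with 0.60 and TYROBP with 0.64. They were taken from 8907 probe sets with 1 symbol that reached the 20th percentile in at least 4 arrays. Like PTGS2, MMP3 was lowest among the arrays labelled 3-day-old in replicate 4, at 1233 against 2174 to 2896 in the other 3, and lowest among those labelled 7-day-old in replicate 3, at 105. MMP1 was also lowest in these 2 arrays, at 6466 and 566, and so was TYROBP, at 64.6 and 10. AMCF-II was lowest in replicate 3 of either label, at 1285 and 108. C4H1orf54 was lowest in 3-day-old replicate 3 and in 7-day-old replicate 1, at 72.3 and 8.73. It was dim under the 7-day-old label, at 8.73, 19.3, 11.9 and 26.6, where the 20th percentile of an array was 26.4 to 31.3. Its nearness to PTGS2 thus rests in part on dim values. The likeness to PTGS2 is a description over 8 arrays that fall into 2 labels, and it carries no test.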

How the data were processed

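Arrays were grouped by the age in the deposited sample labels, and replicate numbers are those of the labels. The authors deposited linear intensities, with a single value for a probe set in an array. They had been scaled, since each array has the same mean once 2% of values are trimmed from either tail. How probe-level signals were summarised is not stated in these sources. The methods name an additional round of amplification for low cRNA, without the samples, GeneSpring GX and a per-probe-set median normalization that the deposited values do not include. Intensities were set to at least 1 and log2 transformed. Tested were the probe sets at or above their array's 20th percentile in 1 or more arrays, with limma 3.58.1 under R 4.3.3. The two-sided test used lmFit, then eBayes, without covariates, and p-values were adjusted over all 21574 by Benjamini-Hochberg, with a threshold of 0.05. Of the probe sets other than controls, 10069 had 1 symbol, 198 several and 13732 none. Symbols in lists were updated through gene IDs to RefSeq (Sscrofa11.1), and each gene was read from its brightest probe set by mean log2 value. Where a gene has several member probe sets, probe set 1 is the one with the highest mean. Ratios were tested by exact permutation in Python 3.11.15.

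The members and lists were chosen with earlier results of these data known. Named were every member, every pathway gene past the threshold, up to 4 genes past it in each other list (smallest adjusted p) or otherwise the 2 brightest, and the 5 genes nearest to PTGS2. The other pathway genes measured and the defining markers are named in addition. The fit was tested on simulated data. Equal replicate numbers did not pair the arrays. Alternatives were no filter, a stricter filter (4 or more arrays at the 50th percentile), the methods' t-test, an intensity trend with robust variances, median centring, quantile normalization, array quality weights, an offset of 16, the replicate number as a block, the mean of all probe sets of a gene and each array left out. Protein, transcript and promoter sequences were not used here.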

Additional observations from a re-analysis of the deposited data

How the results depend on the processing

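The count of member probe sets called was 4 under no filter, the stricter filter, the methods' t-test, the intensity trend, median centring, quantile normalization, array quality weights and the offset of 16, and 3 to 4 with 1 array left out. The replicate number as a block gave 0 calls by limma among the members, with 5 at an unadjusted p under 0.05, and 0 among all probe sets, with 5264 at an unadjusted p under 0.05. Equal numbers gave residual correlations of -0.0135 to 0.00487, so they share only a number. Over all probe sets 2305 passed, against 3491 with the intensity trend and 1020 to 1877 with 1 array left out. With 1 array left out the change in the ratio of PTGS2 to the probe set listed as PGHS-2 ranged from -1.64 to -1.08. The sign of values near 0 turned: PTGES3 probe set 1 gave -0.011 after quantile normalization and -0.0451 to 0.0885 with 1 array left out, PTGES3 probe set 2 gave -0.26 to 0.15 and PLA2G12A -0.0600 to 0.0679 with 1 array left out, and CYSLTR2 gave -0.10 with array weights and -0.33 to 0.35 with 1 array left out. Dim probe sets, such as those of CBR1, CYSLTR1, CYSLTR2 and the second of PTGFR, limit what can be said of those genes.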

Other observations

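Among the arrays labelled 3-day-old, replicate 4 was the lowest for 3 of the 4 member probe sets called (PTGS2, PTGS1 and PTGES) and not for PTGDS. The cytokine IL1A was also lowest there, at 154 against 205 to 305 in the other 3, and so was IL1B, at 107 against 189 to 211, which was the lowest of all 8 arrays. The chemokine CXCL8 had 3384 in that array against 4233 to 4813. INS was highest in it, at 27189 against 21868 to 25266. So were the other endocrine markers measured, GCG at 30272, SST at 31928, PPY at 27150 and CHGA at 3248. For GCG the margin was small, with 29936 in replicate 1. In the list of PTGS2 regulators, IL6, CEBPB, CEBPD and CREB1 were also lowest in 3-day-old replicate 4 within their label. By contrast CREM, JUN, FOS, ELAVL1, ZFP36 and MAPK14 were highest there. The other regulators measured, TNF, NFKBIA and IL1R1 among them, were neither, so the list as a whole was not low in this array. IL1B, CXCL8 and the endocrine markers were singled out after their values were seen, and no test was run on this array.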
